A study of Mus musculus with 12 samples.

Results

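The genes described here are those whose transcript level moved together with the extent of adipocyte differentiation among libraries of the same genotype. The extent was measured in each library as an adipocyte score, the mean log2(CPM + 1) of 5 genes of the mature fat cell, Adipoq, Fabp4, Plin1, Cidec and Cd36, where CPM is a gene's count scaled to the total of gene reads in the library. The score and the level of every other gene were centred on the mean of their genotype, so that only differences between libraries of the same genotype remained, and each gene was related to the score across all 12 libraries of the series. Of the 37991 genes in the files, 13073 had a mean of at least 1 CPM, and the 13068 of them that were not score genes were tested. The genes were thus chosen by the levels of the 5 score genes and by the minimum of 1 CPM, and the score genes are described without a test. Just inside the minimum lay Slamf7, Bves and Wdr66 at means of 1.00, 1.00 and 1.00 CPM, and just outside it Tnni2, Slc28a2 and Pih1d2 at 0.998, 0.998 and 0.998 CPM.

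The libraries hold poly(A) RNA of mouse embryonic fibroblasts on day 6 of adipocyte differentiation, from a study of whether Gadd45a and Ing1 affect this process. All cells were on a C57BL/6N background, came from male E15.5 embryos, were grown for 4 passages and received the same cocktail of IBMX, dexamethasone, rosiglitazone and insulin for 48 h, followed by medium with insulin. The 4 groups of 3 libraries are labelled as deficient in both Gadd45a and Ing1 (DKO), deficient in Ing1 (Ing1-KO), deficient in Gadd45a (Gadd45a-KO) and wild type (WT). The mutant alleles were inherited and so not limited to a cell type. Whether libraries of 1 genotype stem from different embryos or dishes is not stated in the labels, and the p-values given below cover the spread among libraries, part of which may be technical. Ing1 followed its labels and had 0.909, 1.13 and 0.686 CPM in the libraries labelled DKO and 1.01, 1.08 and 1.61 CPM in Ing1-KO. It had 46.5, 47.2 and 44.3 CPM in those labelled Gadd45a-KO and 44.3, 47.7 and 43.1 CPM in WT. Gadd45a went against them, with 139, 139.7 and 139 CPM in the libraries labelled DKO and 13.6, 15.2 and 18.6 CPM in Ing1-KO. Its level was 145, 141 and 144 CPM in those labelled Gadd45a-KO and 14.3, 17.8 and 14.9 CPM in WT. It was higher in both groups labelled as lacking it, which are therefore called here by their labels only. A count for the whole gene cannot tell which of its exons were transcribed. Total gene reads ranged from 42891627 to 52860419 per library. Values of 3 libraries are given in the order of replicates 1, 2 and 3.

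White adipocytes arise when confluent fibroblast-like precursors stop dividing and switch on a chain of transcription factors: C/EBPβ and C/EBPδ respond first to the hormonal cocktail, and PPARγ and C/EBPα then maintain each other and the genes of the mature cell. The mature cell takes up fatty acids, joins them to glycerol, stores the triglyceride in a droplet coated by perilipins, releases it again by lipolysis, and secretes adipokines such as adiponectin. A culture of embryonic fibroblasts usually differentiates only in part, so that bulk RNA of a dish is a mixture of fat cells and cells that stayed fibroblasts. In such a mixture, fewer adipocytes and less RNA of a gene per adipocyte cannot be told apart.

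The score differed widely among libraries of the same label in Ing1-KO and much less in the others. It stood at 3.95, 3.89 and 4.20 in the libraries labelled DKO, at 8.11, 6.50 and 4.57 in Ing1-KO, at 6.86, 7.08 and 6.53 in those labelled Gadd45a-KO and at 8.31, 7.18 and 8.14 in WT. Ing1-KO replicate 1 thus had a score within the range of WT, while replicate 3 lay 3.54 log2 units lower, close to the libraries labelled DKO. The 3 Ing1-KO libraries supplied 86.8% of the sum of squares of the centred score, WT 10.4%, the libraries labelled Gadd45a-KO 2.12% and those labelled DKO 0.710%, so the relations below rest mainly on Ing1-KO and next on WT.

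Adipoq, which encodes adiponectin, had 3.10, 3.07 and 5.78 CPM in the libraries labelled DKO and 148, 44.7 and 9.24 CPM in Ing1-KO. It stood at 53.4, 63.1 and 42.9 CPM in those labelled Gadd45a-KO and 162, 68.7 and 151 CPM in WT. Fabp4, a fatty acid binding protein, had 68.2, 67.6 and 79.6 CPM in the libraries labelled DKO and 1231, 412 and 99.9 CPM in Ing1-KO. It had 528, 537 and 393 CPM in those labelled Gadd45a-KO and 1207, 624 and 1166 CPM in WT. Within Ing1-KO the 2 genes fell 16.0 and 12.3 times from replicate 1 to replicate 3, and in WT replicate 2 was the lowest library for both. Plin1, which coats the lipid droplet, had 1.68, 1.65 and 2.66 CPM in the libraries labelled DKO and 68.9, 22.0 and 4.69 CPM in Ing1-KO. Its level was 27.0, 34.1 and 20.9 CPM in those labelled Gadd45a-KO and 82.9, 36.2 and 70.0 CPM in WT. Cidec, which helps droplets fuse, had 6.34, 5.27 and 7.63 CPM in the libraries labelled DKO and 239.6, 68.7 and 15.2 CPM in Ing1-KO. It stood at 111, 139 and 86.1 CPM in those labelled Gadd45a-KO and 366, 135 and 297 CPM in WT. These 4 genes were lowest of all in the libraries labelled DKO. Cd36, a fatty acid transporter that macrophages also express, had 159, 156 and 119 CPM in the libraries labelled DKO and 518, 201 and 77.1 CPM in Ing1-KO. It had 235, 269 and 205 CPM in those labelled Gadd45a-KO and 533, 285 and 477 CPM in WT. Unlike the other 4, it was higher in the libraries labelled DKO than in Ing1-KO replicate 3.

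**Figure D1:**
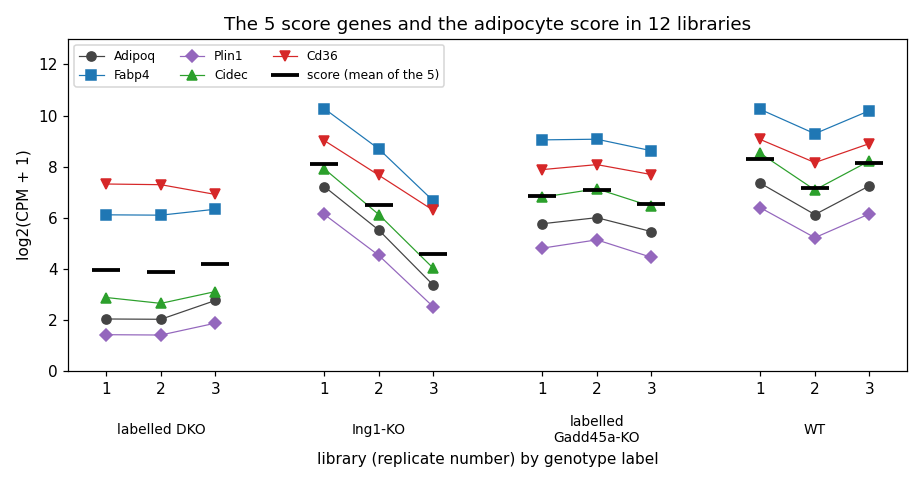
Level of the 5 score genes, as log2(CPM + 1), in each of the 12 libraries, with the score as a black bar; numbers under the axis are replicate numbers. All 5 genes drop across the Ing1-KO libraries, whose score goes through 8.11, 6.50 and 4.57, and WT replicate 2 (7.18) is the lowest of WT.

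A slope was fitted for each gene, the change in log2 units of its level per log2 unit of the score, with a mean of its own for each genotype. By edgeR's quasi-likelihood test at an adjusted p under 0.05, 734 of the 13068 genes were higher where the score was higher, 5.62% of those tested, and 259 were lower, 1.98%, together 993 or 7.6%. Of the 734, 135 had a slope of at least 0.5 and 34 of at least 1, meaning that they moved as far as the score or further, and 61 and 10 of these had a mean of at least 5 CPM. Of the 259, 3 had a slope of -0.5 or beyond, 0 of them at that mean, and 186 had a slope between -0.2 and 0. The median slope was 0.22 in the 734 genes, -0.12 in the 259 and -0.0036 over all genes tested. A test of whether the slope differs between genotypes called 0 genes by edgeR, with 615 at an unadjusted p under 0.05, 4.71% of those tested, and 69 by DESeq2.

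The counts depended on which libraries were in the fit. Without Ing1-KO replicate 1 the test called 166 genes higher and 11 lower, and without Ing1-KO replicate 3 it called 269 and 4. Without replicate 1 of the libraries labelled Gadd45a-KO it called 1172 and 541. That library had the lowest level of the macrophage and leukocyte markers, a summed 2686 CPM over the 27 genes of the list against 7677 CPM in the highest library of its label. With the mean level of that list as a further term the test called 1246 genes higher and 657 lower.

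**Figure D2:**
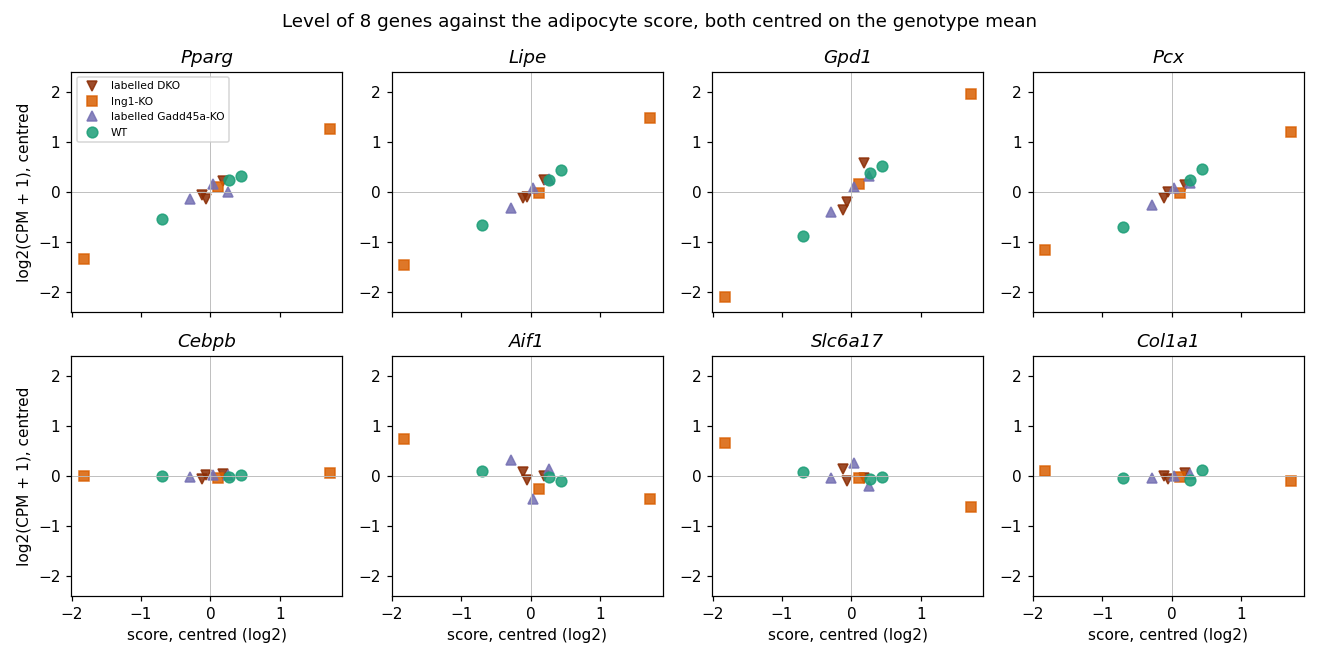
Level of 8 genes (log2(CPM + 1), centred on the genotype mean) against the score, centred in the same way, with 1 point per library and a symbol and colour per genotype label. Pparg, Lipe, Gpd1 and Pcx rise with the score at slopes of 0.84, 0.89, 1.19 and 0.72, Cebpb and Col1a1 stay near 0, and Aif1 and Slc6a17 fall; the 2 outermost points of each panel are Ing1-KO replicates 3 and 1.

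Among the transcription factors of adipogenesis, 9 of 20 rose with the score and 0 fell. Over all genes tested 5.62% rose and 1.98% fell, and the lists that follow are set beside the same shares. Pparg, the nuclear receptor at the centre of the programme and the target of rosiglitazone, had 1.73, 1.92 and 2.49 CPM in the libraries labelled DKO and 18.9, 7.90 and 2.30 CPM in Ing1-KO. Its level was 10.3, 8.98 and 8.05 CPM in those labelled Gadd45a-KO and 20.4, 10.9 and 19.4 CPM in WT. It was highest in the libraries with the highest scores of Ing1-KO and WT, and Ing1-KO replicate 3 lay within the range of the libraries labelled DKO. Its slope was 0.84 ± 0.049 (SE, edgeR adjusted p = 3.56e-06). Cebpa, its partner in the mature cell, had 21.7, 21.3 and 22.5 CPM in the libraries labelled DKO and 50.5, 25.1 and 18.5 CPM in Ing1-KO. It stood at 27.0, 30.6 and 27.5 CPM in those labelled Gadd45a-KO and 55.5, 30.8 and 48.0 CPM in WT. Its slope was 0.43 ± 0.051 (SE, edgeR adjusted p = 0.000686). The early factors Cebpb and Cebpd did not pass the test. Cebpb had 13.5, 12.7 and 13.8 CPM in the libraries labelled DKO and 14.8, 13.7 and 14.1 CPM in Ing1-KO. It had 16.1, 16.1 and 15.7 CPM in those labelled Gadd45a-KO and 16.5, 16.3 and 16.1 CPM in WT. All 12 libraries thus lay between 12.7 and 16.5 CPM, and the slope was 0.02 ± 0.021 (SE, edgeR adjusted p = 0.637). Cebpd had a slope of 0.11 ± 0.041 (SE, edgeR adjusted p = 0.156). Mlxipl, the glucose-sensing factor ChREBP, had a slope of 0.89 ± 0.1 (SE, edgeR adjusted p = 0.000474), and Nr1h3, the oxysterol receptor LXRα, one of 0.38 ± 0.055 (SE, edgeR adjusted p = 0.00218). Ppargc1a, the coactivator of mitochondrial genes, was scarce at 0.163, 0.326 and 0.457 CPM in the libraries labelled DKO against 1.23, 1.04 and 1.91 CPM in WT, and its slope was 0.75 ± 0.12 (SE, edgeR adjusted p = 0.003).

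The window before a gene's start site is shown for 2 members that moved together with the score, because it holds a match to the motif bound by C/EBP factors. The motif searched was TTGCNNAA on both strands in the RefSeq window of 250 bases before to 50 after each start on GRCm38.p6, and the capitals mark the matches; the bases before the start are printed. Of 87 named genes that rose with the score, 62 had such a window and 6 had a match. That share of the 62 was no higher than the 10.1% of all genes tested. Pparg had 2 matches on chr6:115421816-115422065 (+ strand) and Rbp4 had 1 on chr19:38124812-38125061 (- strand).
Pparg: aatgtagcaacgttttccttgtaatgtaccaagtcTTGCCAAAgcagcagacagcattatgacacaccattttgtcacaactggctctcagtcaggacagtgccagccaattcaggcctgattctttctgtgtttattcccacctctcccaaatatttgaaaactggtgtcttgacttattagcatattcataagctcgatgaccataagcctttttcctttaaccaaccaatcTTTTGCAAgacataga
Rbp4: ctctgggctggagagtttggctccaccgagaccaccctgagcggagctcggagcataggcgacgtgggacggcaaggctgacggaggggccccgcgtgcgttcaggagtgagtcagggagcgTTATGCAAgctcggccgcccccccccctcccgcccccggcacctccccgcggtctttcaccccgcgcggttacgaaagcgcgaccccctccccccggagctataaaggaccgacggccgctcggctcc
The matches of Pparg begin 215 and 16 bases before the start and that of Rbp4 128 bases before it. A match was present in a window of 15.9% of the genes that rose with the score (85 of the 536 with a window), 7.26% of those that fell (13 of 179) and 10.1% of all genes tested (1009 of 9981). Over all genes of the RefSeq table the share was 12.2%. Of the other motifs searched on both strands, CCAAT, bound by NF-Y, lay in 46.6%, 42.5% and 43.0% of the same sets, and TCACNCCAC, bound by SREBP factors, in 1.87%, 1.68% and 1.44%. The DR1 motif bound by PPARγ with RXR, a pair of AGGNCA repeats with 1 base between them, lay in 0.373%, 0% and 0.291%, and TNAAGGTCA, bound by ERR factors, in 0.373%, 1.68% and 0.862%. A match is a string of letters and not a measured binding site.

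Genes that make triglyceride rose in most cases. Of 15 tested genes of triglyceride synthesis 11 rose and 0 fell, with a median slope of 0.28. Gpd1, which makes the glycerol backbone, had 5.67, 4.96 and 10.4 CPM in the libraries labelled DKO and 312, 88.8 and 17.8 CPM in Ing1-KO. Its level was 140.1, 163 and 99.3 CPM in those labelled Gadd45a-KO and 411, 155 and 371 CPM in WT. Its slope was 1.19 ± 0.058 (SE, edgeR adjusted p = 2.94e-06). Within Ing1-KO it fell 17.5 times from replicate 1 to replicate 3, more than any score gene. Agpat2, an acyltransferase of the pathway, had a slope of 0.68 ± 0.034 (SE, edgeR adjusted p = 1.6e-06), Gpat3, which adds the first acyl chain, one of 0.89 ± 0.062 (SE, edgeR adjusted p = 1.19e-05), and Aqp7, the glycerol channel, one of 1.09 ± 0.073 (SE, edgeR adjusted p = 9.29e-06). Pck1, which feeds glycerol synthesis from pyruvate, had 1.14, 0.805 and 2.02 CPM in the libraries labelled DKO and 54.6, 16.3 and 4.65 CPM in Ing1-KO. It stood at 22.7, 22.1 and 14.6 CPM in those labelled Gadd45a-KO and 53.0, 20.1 and 54.2 CPM in WT. Its slope was 1.05 ± 0.075 (SE, edgeR adjusted p = 3.53e-05).

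On the droplet, 9 of 17 tested genes rose and 0 fell. Plin4, a perilipin of nascent droplets, had 3.87, 4.16 and 5.05 CPM in the libraries labelled DKO and 99.0, 32.7 and 7.36 CPM in Ing1-KO. It had 44.6, 57.0 and 38.5 CPM in those labelled Gadd45a-KO and 148, 63.4 and 121 CPM in WT. Its slope was 1.05 ± 0.027 (SE, edgeR adjusted p = 1.12e-08). Mrap, the accessory protein of the melanocortin receptor, had 0.606, 0.392 and 0.832 CPM in the libraries labelled DKO and 24.2, 8.06 and 1.67 CPM in Ing1-KO. Its level was 10.2, 11.7 and 7.58 CPM in those labelled Gadd45a-KO and 29.8, 13.5 and 29.0 CPM in WT. Its libraries followed the order of the score in each of the 4 genotypes, and its slope was 1.08 ± 0.045 (SE, edgeR adjusted p = 5.06e-07). G0s2, an inhibitor of adipose triglyceride lipase, had a slope of 0.85 ± 0.042 (SE, edgeR adjusted p = 1.6e-06), and Plin5 one of 1.03 ± 0.056 (SE, edgeR adjusted p = 2.44e-06). The genes of lipolysis rose beside those of storage, 8 of 11 with 0 lower. Lipe, hormone-sensitive lipase, had 6.22, 6.18 and 8.13 CPM in the libraries labelled DKO and 77.3, 26.7 and 9.09 CPM in Ing1-KO. It stood at 34.5, 39.0 and 25.9 CPM in those labelled Gadd45a-KO and 90.3, 41.8 and 78.2 CPM in WT. Its slope was 0.89 ± 0.027 (SE, edgeR adjusted p = 2.86e-08). Pnpla2, adipose triglyceride lipase, had 24.3, 23.7 and 24.5 CPM in the libraries labelled DKO and 157, 62.5 and 28.4 CPM in Ing1-KO. It had 74.3, 78.2 and 57.8 CPM in those labelled Gadd45a-KO and 171, 80.8 and 161 CPM in WT. Its slope was 0.72 ± 0.043 (SE, edgeR adjusted p = 7.72e-06).

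Fatty acid synthesis gave 12 of 19 tested genes higher and 0 lower. Scd1, the Δ9 desaturase, had 154, 134 and 199.9 CPM in the libraries labelled DKO and 2716, 971 and 279 CPM in Ing1-KO. Its level was 1522, 1384 and 1143 CPM in those labelled Gadd45a-KO and 3240, 1743 and 3029 CPM in WT. Its slope was 0.91 ± 0.043 (SE, edgeR adjusted p = 1.39e-06). Fasn, fatty acid synthase, had 229.9, 249.6 and 224 CPM in the libraries labelled DKO and 459, 321 and 261 CPM in Ing1-KO. It stood at 341, 368 and 306 CPM in those labelled Gadd45a-KO and 543, 381 and 490.5 CPM in WT. Its slope was 0.25 ± 0.036 (SE, edgeR adjusted p = 0.00231). In each Ing1-KO and WT library it followed the order of Scd1 over a narrower range. Acaca, acetyl-CoA carboxylase 1, had a similar slope of 0.26 ± 0.031 (SE, edgeR adjusted p = 0.000559). Thrsp, a lipogenic regulator close to the CPM minimum, had 0.163, 0.0435 and 0.0832 CPM in the libraries labelled DKO and 5.98, 1.23 and 0.195 CPM in Ing1-KO. It had 1.72, 1.42 and 0.635 CPM in those labelled Gadd45a-KO and 3.72, 1.12 and 4.27 CPM in WT. Its slope was 1.46 ± 0.13 (SE, edgeR adjusted p = 0.000113), but its mean of 1.715 CPM reached the minimum through the libraries with high scores. The libraries followed the order of the score for Thrsp in 1 of 4 genotypes. In fatty acid uptake and binding 4 of 13 rose and 0 fell: Acsl1, the acyl-CoA synthetase, at 0.93 ± 0.025 (SE, edgeR adjusted p = 1.12e-08), Lpl, lipoprotein lipase, at 0.72 ± 0.068 (SE, edgeR adjusted p = 0.000257), the acyl-CoA binding protein Dbi at 0.39 ± 0.035 (SE, edgeR adjusted p = 0.000108) and the transporter Slc27a1 at 0.27 ± 0.063 (SE, edgeR adjusted p = 0.0347).

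Mitochondrial genes moved by small but regular amounts. Of 25 tested genes of fatty acid beta oxidation 21 rose and 0 fell (median slope 0.24), of 25 of the tricarboxylic acid cycle 20 rose and 0 fell (0.12), and of 39 nuclear-encoded subunits of the respiratory chain 16 rose and 0 fell (0.08). Acadm, the medium-chain dehydrogenase, had a slope of 0.40 ± 0.039 (SE, edgeR adjusted p = 0.000207). Pcx, pyruvate carboxylase, had 15.9, 14.6 and 17.8 CPM in the libraries labelled DKO and 127, 54.2 and 24.1 CPM in Ing1-KO. Its level was 55.9, 59.9 and 44.2 CPM in those labelled Gadd45a-KO and 144, 64.2 and 124 CPM in WT. Its slope was 0.72 ± 0.04 (SE, edgeR adjusted p = 3.71e-06), the steepest called slope of its list. Mdh1, a malate dehydrogenase, had a slope of 0.17 ± 0.024 (SE, edgeR adjusted p = 0.00176). Cycs, cytochrome c, had 30.0, 30.5 and 29.8 CPM in the libraries labelled DKO and 53.2, 40.5 and 32.2 CPM in Ing1-KO. It stood at 41.1, 40.8 and 38.9 CPM in those labelled Gadd45a-KO and 54.6, 43.7 and 55.9 CPM in WT. Its slope was 0.21 ± 0.022 (SE, edgeR adjusted p = 0.00029). Among 21 genes that break down branched-chain amino acids 16 rose and 1 fell. The 1 that fell was Bcat1, the cytosolic aminotransferase, with a slope of -0.10 ± 0.019 (SE, edgeR adjusted p = 0.0111); its mitochondrial counterpart Bcat2 was among the 16.

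Of 13 tested adipokine genes 10 rose, and of 18 tested genes of complement and the acute phase 13 rose. In both lists 0 were lower, and the median slopes were 0.48 and 0.58. The counts do not show which cells expressed these genes. Hp and Lcn2 stand in both lists. Rbp4, the retinol carrier whose promoter is shown above, had 1.40, 1.07 and 2.60 CPM in the libraries labelled DKO and 24.5, 7.68 and 2.63 CPM in Ing1-KO. It had 8.91, 9.14 and 7.05 CPM in those labelled Gadd45a-KO and 20.2, 10.9 and 21.0 CPM in WT. Its slope was 0.92 ± 0.075 (SE, edgeR adjusted p = 5.88e-05). Ing1-KO replicate 3 was close to the highest library labelled DKO. Hp, haptoglobin, had 25.9, 30.9 and 27.3 CPM in the libraries labelled DKO and 403, 186 and 37.9 CPM in Ing1-KO. Its level was 95.5, 157 and 107 CPM in those labelled Gadd45a-KO and 378, 175 and 352 CPM in WT. Its slope was 0.96 ± 0.086 (SE, edgeR adjusted p = 0.000207). In Ing1-KO replicate 1 it exceeded all 3 WT libraries. Lrg1, a secreted glycoprotein, had 0.886, 0.609 and 0.707 CPM in the libraries labelled DKO and 18.1, 6.11 and 1.60 CPM in Ing1-KO. It stood at 8.97, 12.5 and 7.77 CPM in those labelled Gadd45a-KO and 39.0, 14.4 and 29.7 CPM in WT. Its slope was 1.03 ± 0.055 (SE, edgeR adjusted p = 2.24e-06). Ing1-KO replicates 2 and 3 lay below all 3 WT libraries. Retn, which encodes resistin, had 0.0233, 0.0218 and 0 CPM in the libraries labelled DKO and 3.06, 0.531 and 0.117 CPM in Ing1-KO. It had 1.14, 0.728 and 0.699 CPM in those labelled Gadd45a-KO and 3.54, 0.864 and 4.05 CPM in WT. Its slope was the steepest of the 734, 1.48 ± 0.16 (SE, edgeR adjusted p = 0.000352), but its mean of 1.23 CPM reached the minimum through the libraries with high scores. Its libraries followed the order of the score in 1 of 4 genotypes, and Spearman's rho was 0.762 (exact permutation p = 0.0525, adjusted p = 0.0688). Lep and Cfd, which encode leptin and adipsin, stayed under the minimum and were not tested. Lep had 0.0233, 0 and 0.0416 CPM in the libraries labelled DKO and 1.42, 0.424 and 0.195 CPM in Ing1-KO. Its level was 0.984, 0.87 and 0.593 CPM in those labelled Gadd45a-KO and 2.95, 0.799 and 2.18 CPM in WT. C3, the central complement component, had 214, 238 and 215 CPM in the libraries labelled DKO and 433, 314 and 133 CPM in Ing1-KO. It stood at 183, 266 and 237 CPM in those labelled Gadd45a-KO and 269.5, 283 and 283 CPM in WT. The WT libraries lay close together although their scores differed, and its slope of 0.41 ± 0.086 (SE, edgeR adjusted p = 0.0203) became -0.01 without Ing1-KO.

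Of 12 tested genes of brown and beige fat 5 rose and 0 fell, against 5.62% and 1.98% of all genes tested. Elovl3 and Adrb3 of this list are also counted under fatty acid synthesis and lipolysis. Elovl3, a fatty acid elongase, had 0.373, 0.261 and 0.499 CPM in the libraries labelled DKO and 14.3, 4.84 and 0.837 CPM in Ing1-KO. It had 16.9, 10.4 and 6.84 CPM in those labelled Gadd45a-KO and 36.5, 12.0 and 28.5 CPM in WT. Its slope was 1.18 ± 0.13 (SE, edgeR adjusted p = 0.000681). Adrb3, the β3-adrenergic receptor of adipocytes, had a slope of 0.86 ± 0.089 (SE, edgeR adjusted p = 0.000243). Ucp1 and Cidea, which define the brown cell, were under the minimum. Ucp1 had 0.0233, 0.0871 and 0.0624 CPM in the libraries labelled DKO and 0.466, 0.149 and 0.0195 CPM in Ing1-KO. Its level was 0.681, 0.546 and 0.254 CPM in those labelled Gadd45a-KO and 0.999, 0.324 and 1.30 CPM in WT. For insulin response, 5 of 17 rose and 0 fell. Slc2a4, the insulin-dependent glucose transporter, had 0.863, 0.805 and 0.977 CPM in the libraries labelled DKO and 7.48, 2.61 and 1.15 CPM in Ing1-KO. It stood at 2.91, 2.24 and 2.03 CPM in those labelled Gadd45a-KO and 4.93, 2.07 and 5.52 CPM in WT. Its slope was 0.81 ± 0.086 (SE, edgeR adjusted p = 0.000292). Acvr1c, the receptor ALK7, had a slope of 1.13 ± 0.065 (SE, edgeR adjusted p = 3.16e-06), and Akt2, the insulin-pathway kinase, a slope of 0.08 ± 0.015 (SE, edgeR adjusted p = 0.00963). Cholesterol synthesis gave 12 of 24 higher and 0 lower, led by Insig1, the regulator of its sterol sensor, at 0.38 ± 0.02 (SE, edgeR adjusted p = 2.24e-06). Of 18 targets of glucocorticoids, which the cocktail contains, 9 rose and 0 fell, with Pdk4 at 0.39 ± 0.043 (SE, edgeR adjusted p = 0.000367) and Mt1 at 0.32 ± 0.044 (SE, edgeR adjusted p = 0.00218).

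**Figure D3:**
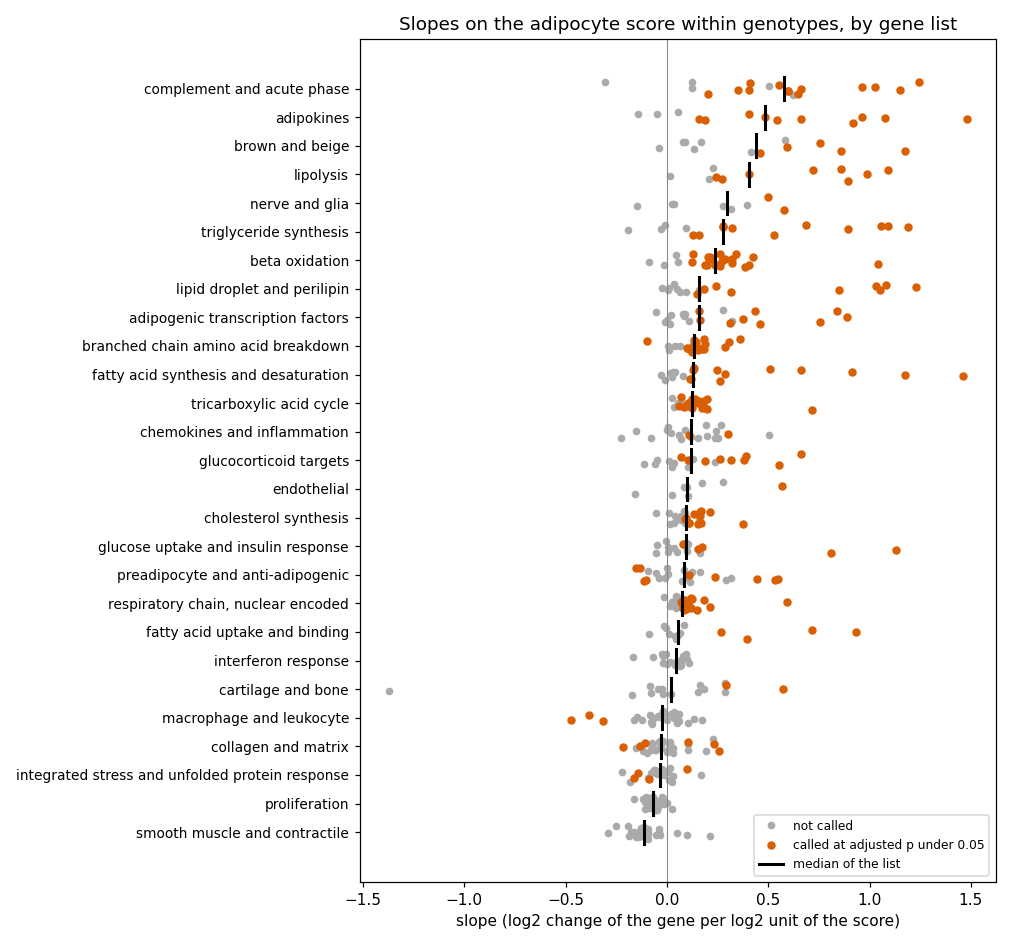
Slope of each tested gene (log2 change per log2 unit of the score) in the 27 lists with at least 5 tested genes, sorted by the median of the list (black bar), with called genes in orange. The medians run from 0.58 for complement and acute phase to -0.11 for smooth muscle and contractile genes, against -0.0036 over all genes.

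Besides the members already named, the steepest rises at a mean of 5 CPM or more with the same sign in each genotype were in Aldh1a7, an aldehyde dehydrogenase, Slc36a2, an amino acid transporter, Car3, a carbonic anhydrase abundant in fat, and Adhfe1, a mitochondrial alcohol dehydrogenase. Aldh1a7 had 3.31, 2.59 and 3.93 CPM in the libraries labelled DKO and 68.4, 22.7 and 4.63 CPM in Ing1-KO. It had 20.0, 19.3 and 14.0 CPM in those labelled Gadd45a-KO and 46.9, 20.1 and 48.4 CPM in WT. Its slope was 1.10 ± 0.048 (SE, edgeR adjusted p = 7.93e-07). Slc36a2, a surface marker of brown fat, had 1.84, 2.05 and 2.25 CPM in the libraries labelled DKO and 42.0, 12.6 and 3.17 CPM in Ing1-KO. Its level was 15.6, 16.4 and 12.3 CPM in those labelled Gadd45a-KO and 38.1, 18.5 and 38.8 CPM in WT. Its slope was 1.04 ± 0.035 (SE, edgeR adjusted p = 8.02e-08). Ing1-KO replicate 1 exceeded replicate 3 by 14.8 times for Aldh1a7 and 13.2 times for Slc36a2. Car3 had a slope of 0.97 ± 0.13 (SE, edgeR adjusted p = 0.00218) and Adhfe1 one of 0.93 ± 0.061 (SE, edgeR adjusted p = 7.96e-06).

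The genes that fell as the score rose had shallower slopes, and several are known from macrophages and microglia. Fcrls, an Fc receptor-like protein of microglia, had 327, 272 and 288 CPM in the libraries labelled DKO and 47.0, 73.5 and 156 CPM in Ing1-KO. It stood at 68.4, 128 and 139.5 CPM in those labelled Gadd45a-KO and 62.0, 83.2 and 70.1 CPM in WT. Its slope was -0.47 ± 0.098 (SE, edgeR adjusted p = 0.0195). Aif1, which encodes the macrophage protein IBA1, had 15.0, 16.7 and 15.7 CPM in the libraries labelled DKO and 4.15, 4.88 and 10.8 CPM in Ing1-KO. It had 4.43, 7.16 and 8.34 CPM in those labelled Gadd45a-KO and 4.68, 5.53 and 4.99 CPM in WT. Its slope was -0.38 ± 0.087 (SE, edgeR adjusted p = 0.0264). Abcg3, Itgal, which encodes the leukocyte integrin αL, and Cd300a, an inhibitory receptor of myeloid cells, had slopes of -0.41 ± 0.099, -0.37 ± 0.079 and -0.33 ± 0.085 (SE). Hpgd, which inactivates prostaglandins, had 50.1, 44.4 and 46.1 CPM in the libraries labelled DKO and 8.75, 9.74 and 27.3 CPM in Ing1-KO. Its level was 10.97, 19.6 and 22.7 CPM in those labelled Gadd45a-KO and 10.2, 12.0 and 12.7 CPM in WT. Its slope was -0.45 ± 0.11 (SE, edgeR adjusted p = 0.0467). Each of these was highest in the libraries labelled DKO.

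The other genes that fell most are of several kinds. Slc6a17, a vesicular amino acid transporter known from neurons, had 70.0, 82.7 and 72.4 CPM in the libraries labelled DKO and 35.6, 53.5 and 88.2 CPM in Ing1-KO. It stood at 119, 86.5 and 96.2 CPM in those labelled Gadd45a-KO and 94.8, 102 and 92.4 CPM in WT. Its slope was -0.34 ± 0.054 (SE, edgeR adjusted p = 0.00506). Serinc2, a membrane protein, had a slope of -0.44 ± 0.057 (SE, edgeR adjusted p = 0.00122). Sprr2k, of the small proline-rich family, had -0.46 ± 0.099 (SE, edgeR adjusted p = 0.0216), and Htr1b, a serotonin receptor, -0.40 ± 0.088 (SE, edgeR adjusted p = 0.0203). Spint2, a serine protease inhibitor, had a slope of -0.34 ± 0.091 (SE, edgeR adjusted p = 0.0483), and Fam84b one of -0.33 ± 0.07 (SE, edgeR adjusted p = 0.0216). Sprr2k belongs to a family of near-identical genes, so its value is uncertain. Gadd45a itself was among the 259, with a slope of -0.14 ± 0.019 (SE, edgeR adjusted p = 0.00116).

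The macrophage and leukocyte list as a whole had 3 of 27 genes lower and 0 higher, against 1.98% and 5.62% of all genes tested. The 3 were Itgax at -0.48 ± 0.092 (SE, edgeR adjusted p = 0.0106), Cx3cr1 at -0.32 ± 0.065 (SE, edgeR adjusted p = 0.0183) and Aif1. The broad markers of the list did not pass, with Ptprc, which encodes CD45, at -0.07 ± 0.091 (SE, edgeR adjusted p = 0.694) and Adgre1, which encodes F4/80, at 0.06 ± 0.13 (SE, edgeR adjusted p = 0.835). The summed level of the list ranged from 9218 to 9781 CPM in the libraries labelled DKO, 5027 to 5863 CPM in Ing1-KO, 2686 to 7677 CPM in those labelled Gadd45a-KO and 4889 to 5601 CPM in WT, and 0 of its 27 genes were under 1 CPM. Apart from the fit with the list as a term, the part of such cells in the slopes was not tested.

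Genes of the fibroblast state were divided, and the shares over all genes tested were 5.62% higher, 1.98% lower and 7.6% in either direction. None of the 23 tested smooth muscle and contractile genes was called, although 20 had a negative slope (median -0.11) and Acta2, smooth muscle actin, reached -0.18 ± 0.048 (SE, edgeR adjusted p = 0.0507). By edgeR 0 of 35 proliferation genes were called, 34 of them with a negative slope (median -0.07), and Mki67 had -0.11 ± 0.057 (SE, edgeR adjusted p = 0.32). Among 33 collagen and matrix genes 3 rose and 3 fell, with Tnc, tenascin C, at -0.21 ± 0.039 (SE, edgeR adjusted p = 0.00768), Col15a1 at 0.26 ± 0.045 (SE, edgeR adjusted p = 0.0074) and Col1a1, the main fibrillar collagen, at -0.04 ± 0.03 (SE, edgeR adjusted p = 0.542). The list of preadipocyte and anti-adipogenic genes was divided, with 5 of 23 higher and 4 lower: the secreted Wnt antagonists Sfrp1 and Sfrp2 rose at 0.44 ± 0.052 (SE, edgeR adjusted p = 0.0008) and 0.55 ± 0.059 (SE, edgeR adjusted p = 0.000519), as did Cd34 at 0.54 ± 0.093 (SE, edgeR adjusted p = 0.00765), while the mesenchymal surface markers Thy1 and Pdgfrb fell at -0.11 ± 0.027 (SE, edgeR adjusted p = 0.0304) and -0.13 ± 0.03 (SE, edgeR adjusted p = 0.0224). Dlk1, the preadipocyte factor, had 0.29 ± 0.084 (SE, edgeR adjusted p = 0.0711).

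The remaining lists are small, and are set beside the same shares over all genes (5.62% higher and 1.98% lower). Of 15 cartilage and bone genes 2 rose (Comp and Sox5), of 8 endothelial genes 1 (Tek), of 8 of nerve and glia 2 (S100b and Ngfr), of 21 chemokines and inflammatory genes 2 (Cxcl12 and Csf1), and of 20 of the integrated stress and unfolded protein response 1 (Dnajb9), with 3 lower (Shmt2, Asns and Phgdh). By edgeR 0 of 19 interferon genes, 0 of 2 tested skeletal muscle genes and 0 of 2 tested epithelial genes were called; 8 of the 15 skeletal muscle markers and 8 of the 11 epithelial ones were under 0.1 CPM.

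**Figure D4:**
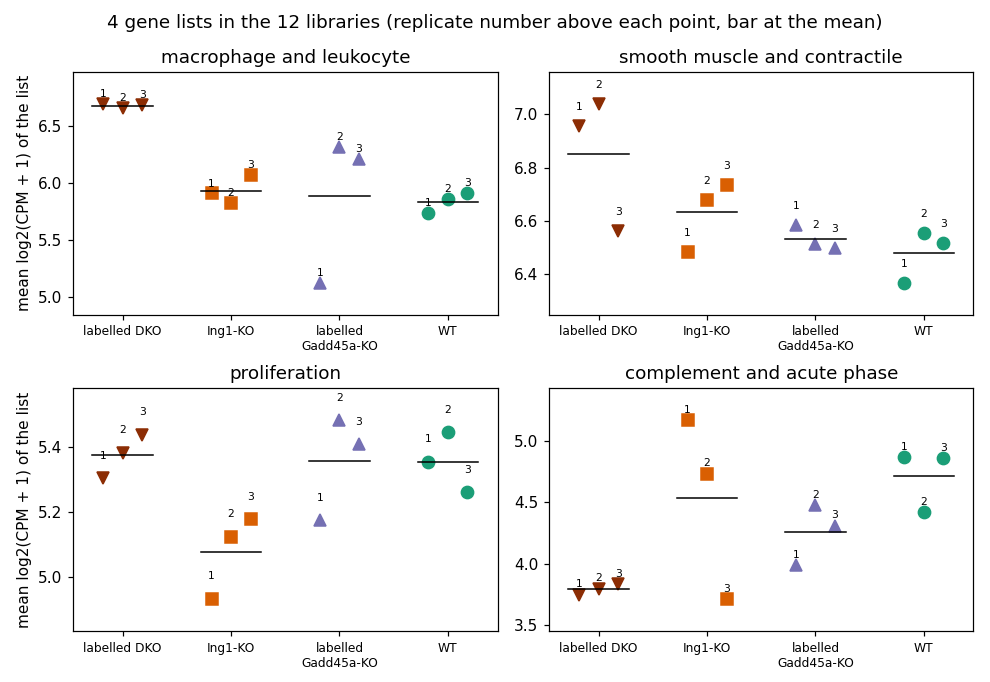
Mean log2(CPM + 1) of 4 gene lists in each library, by genotype label, with replicate numbers above the points and a bar at the mean. The macrophage and leukocyte list is highest in the 3 libraries labelled DKO (6.66 to 6.69) and lowest in replicate 1 labelled Gadd45a-KO (5.13), and the complement and acute phase list runs through 5.17, 4.73 and 3.71 in Ing1-KO.

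By correlation of the centred levels over the 12 libraries, the genes most like the score were Plin4, Mrap, Acsl1, Lipe, Slc36a2 and Aldh1a7, with Pearson's r of 0.998, 0.998, 0.997, 0.996, 0.995 and 0.994. They were chosen for this value, so no p is given. The most opposite were Pdgfc, Supt20, Uba6, Adamts4, Wnt9a and Bcor, at -0.967, -0.965, -0.964, -0.961, -0.961 and -0.954. Without the 2 libraries farthest from the median score, Ing1-KO replicates 3 and 1, the first 6 genes kept r between 0.962 and 0.995 and the other 6 between -0.942 and -0.664. The size of r was similar in the 2 groups, while that of the slope could differ widely: Plin4 had 1.05 ± 0.027 and Bcor -0.07 ± 0.014 (SE).

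For the 20 tested genes of a fixed list, r was also set against all orders of the score within genotypes, an exact permutation test whose smallest p is 0.00077. In all, 31 relations were computed and p-values adjusted over them, but 11 of these were genes chosen for an extreme r, whose small p-values lower the adjusted values of the others. Pnpla2 had Pearson's r of 0.985 and Spearman's rho of 0.944, each with an exact permutation p of 0.00077 (adjusted p = 0.00598 and 0.00797), and r was 0.970 without the 2 farthest libraries. Pparg had r of 0.989 (exact permutation p = 0.00463, adjusted p = 0.00897) and rho of 0.944 (p = 0.0054, adjusted p = 0.0105). Its r was 0.924 without them. Cebpb had r of 0.436 (exact permutation p = 0.414, adjusted p = 0.442) and rho of 0.524 (p = 0.133, adjusted p = 0.158). Acta2 had r of -0.789 (exact permutation p = 0.0147, adjusted p = 0.0239) and rho of -0.783 (p = 0.00772, adjusted p = 0.0133), with r of -0.648 without the 2 libraries. Dlk1, with r of 0.747 (exact permutation p = 0.133, adjusted p = 0.147) and rho of 0.462 (p = 0.216, adjusted p = 0.239), rested on those 2 libraries, since r was 0.103 without them.

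Because Ing1-KO supplied most of the spread, the slopes were fitted again in the 9 other libraries. There 53 genes were higher with the score, 0.406% of those tested, and 1 was lower, 0.00765%. All 53 were among the 734, and the 1 lower gene, the amino acid transporter Slc38a4, named after its value was seen, had a slope of 0.07 in all 12 libraries. Of the 734 genes, 720 kept a positive slope in the 9 libraries (98.1%, against 52.1% of all genes). Of the 259 genes 248 kept a negative one, against 47.9% of all genes, although the 2 fits share those libraries. The 53 include Plin4, Lipe, Acsl1, Pnpla2, Gpd1, Mrap, Agpat2, Pcx, Scd1 and Cebpa. Lipe had a slope of 1.00 there (edgeR adjusted p = 0.000471), Pcx 0.98 (edgeR adjusted p = 0.000612) and Gpd1 1.36 (edgeR adjusted p = 0.0269), each beside a slope of 0.89, 0.72 and 1.19 in all 12. Pparg, at 0.77, did not pass (edgeR adjusted p = 0.0754).

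The same question was put without shared libraries, by choosing genes on the 3 Ing1-KO libraries alone and reading them in the other genotypes. There were 269 genes at least 2-fold higher in Ing1-KO replicate 1 than in replicate 3 with replicate 2 between. Of these 260 (96.7%, against 52.1% of all genes) had a positive slope in the other 9 libraries. The slope was called higher there in 43 of them, against 0.406% of all genes. Among WT, replicate 2, with the lowest score of its genotype, was the lowest library for 240 of the 269 genes (89.2%, against 35.0% of all genes). The high-score WT replicate 1 was highest for 170 (63.2%, against 34.2%). Of the sum of squares of the score, WT held 10.4%, the libraries labelled Gadd45a-KO 2.12% and those labelled DKO 0.710%. The slope in the 9 libraries and the place of WT replicate 2 are therefore largely the same observation. In the libraries labelled Gadd45a-KO the low-score replicate 3 was lowest for 162 (60.2%, against 25.4%) and the high-score replicate 2 highest for 128 (47.6%, against 36.7%). In those labelled DKO the low-score replicate 2 was lowest for 156 (58.0%, against 42.0%) and the high-score replicate 3 highest for 171 (63.6%, against 46.8%). In the opposite direction 42 genes were chosen, of which 38 (90.5%, against 47.9% of all genes) had a negative slope in the 9 libraries, 0 of them called. WT replicate 2 was the highest of its genotype for 28 of the 42 (66.7%, against 38.7% of all genes). The low-score replicate 3 labelled Gadd45a-KO was highest for 12 (28.6%, against 21.6%), and the low-score replicate 2 labelled DKO for 26 (61.9%, against 28.4%). Genes are not independent of each other, so these shares describe the libraries and carry no p.

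The genotype means, which centring removes, gave a second reading of the same genes. Without the score in the model, the libraries labelled DKO differed from WT in 970 genes that were higher (7.42% of those tested) and 1093 that were lower (8.36%), together 15.8%. Of the 734 genes that rose with the score, 347 were lower in the libraries labelled DKO (47.3%) and 2 higher, with a median log2 fold change of -0.50 against 0.0019 over all genes. The log2 fold change was -5.49 ± 0.94 (SE, edgeR adjusted p = 0.00889) for Gpd1, -4.05 ± 0.68 (SE, edgeR adjusted p = 0.00818) for Scd1 and -3.36 ± 0.66 (SE, edgeR adjusted p = 0.0128) for Lipe. Elovl3 had -6.08 ± 1.02 (SE, edgeR adjusted p = 0.00825) and Pparg -3.05 ± 0.62 (SE, edgeR adjusted p = 0.0138). The pair that was higher, named after their values were seen, were Maged2, at 198.5, 198.9 and 210.1 CPM in the libraries labelled DKO against 177.7, 177.4 and 179 CPM in WT, and Hip1. Of the 259 genes that fell with the score, 26 were higher (10.0%, against 7.42% of all genes) and 2 were lower, among them Bpgm, named after its value was seen; the 26 include Fcrls, Aif1, Cx3cr1, Abcg3, Hpgd, Cd300a and Gadd45a.

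Both counts moved with the libraries and with the leukocyte markers. Of the 734 genes, 38 were lower without DKO replicate 1, 123 without DKO replicate 2, 44 without WT replicate 1 and 126 without WT replicate 3. The 26 genes became 5 without DKO replicate 1, 11 without DKO replicate 2, 3 without replicate 1 of WT and 10 when its replicate 3 was left out, and 46 without the 3 Ing1-KO libraries. Of the macrophage and leukocyte list itself, 15 of 27 genes were higher in the libraries labelled DKO and 0 lower. With that list as a term, 4 of the 734 genes were lower and 2 of the 259 higher, and the 3 libraries labelled DKO lay above all 9 others in that list, so the label and the list cannot be told apart. The WT libraries are shared by all 3 comparisons with WT.

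**Figure D5:**
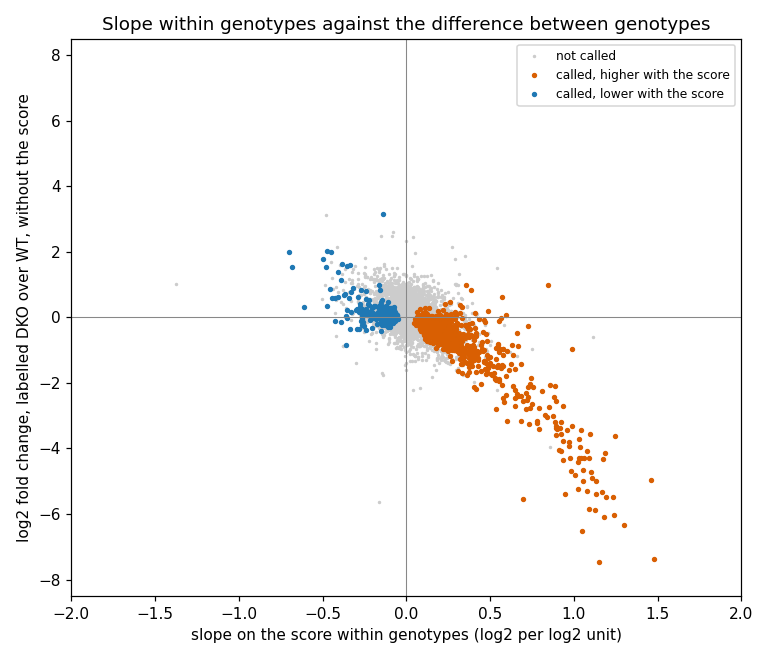
Slope on the score within genotypes (x axis, log2 per log2 unit) against the log2 fold change of the libraries labelled DKO over WT without the score (y axis), 1 point per tested gene, with called slopes in orange (734 higher) and blue (259 lower). Genes with slopes near 1 reach log2 fold changes of -4 and beyond, and the isolated blue point above 3 is Gadd45a.

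The genes that rose with the score were also counted in the other comparisons with WT. With Gadd45a-KO as the label compared with WT, 1 gene was called by edgeR, Gadd45a (0.00765%), with 719 at an unadjusted p under 0.05 (5.5%) and 7 calls by DESeq2. Of the 734 genes 0 were called, and 675 had a negative log2 fold change (92.0%, against 50.3% of all genes), with a median of -0.23. In Ing1-KO against WT 386 genes were higher (2.95%) and 271 lower (2.07%), together 657 or 5.03%. Of the 734 genes 22 were higher (3.00%) and 15 lower (2.04%), near the shares of all genes, with a median of -0.11. A negative log2 fold change was found in 485 of the 734 (66.1%, against 47.0% of all genes). The 15 became 184 without Ing1-KO replicate 1, and 38 with DESeq2. The count became 0 without WT replicate 1, 2 or 3 or without Ing1-KO replicate 2, and 1 without DKO replicate 1 or without replicate 3 labelled Gadd45a-KO. With another single library left out the count lay between 4 and 15. The 22 include Comp, Penk and Mme, which are described next.

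A further fit compared genotypes at an equal score, by keeping the score as a covariate without centring. It contains the slope, and the score is itself an outcome of the culture. Ing1-KO then differed from WT in 1524 genes (11.7%), 779 higher (5.96%) and 745 lower (5.7%), but in 224 without Ing1-KO replicate 1 and 453 without WT replicate 2. The higher genes were 51.1% of the calls, but 80.8% without Ing1-KO replicate 1. Penk, which encodes the precursor of enkephalins, had 27.9, 16.3 and 49.6 CPM in the libraries labelled DKO and 424, 191 and 55.7 CPM in Ing1-KO. It had 13.6, 7.42 and 11.5 CPM in those labelled Gadd45a-KO and 12.9, 8.18 and 25.6 CPM in WT. Its log2 difference at equal score was 4.71 ± 0.47 (SE, edgeR adjusted p = 0.000793). Among Ing1-KO libraries it followed the score, and even Ing1-KO replicate 3 lay above every WT library. Comp, a cartilage matrix protein, had 5.92, 4.64 and 6.15 CPM in the libraries labelled DKO and 34.0, 20.4 and 8.25 CPM in Ing1-KO. Its level was 2.99, 2.31 and 2.01 CPM in those labelled Gadd45a-KO and 3.79, 2.74 and 4.34 CPM in WT. Its difference was 3.16 ± 0.15 (SE, edgeR adjusted p = 4.65e-06). Mme, the neutral endopeptidase CD10, had 10.7, 10.0 and 11.9 CPM in the libraries labelled DKO and 64.0, 46.8 and 16.1 CPM in Ing1-KO. It stood at 8.53, 7.40 and 6.08 CPM in those labelled Gadd45a-KO and 12.3, 8.18 and 12.7 CPM in WT. The difference came to 2.58 ± 0.15 (SE, edgeR adjusted p = 2.38e-05). The imprinted gene Mest had 103, 82.4 and 86.3 CPM in the libraries labelled DKO and 199, 216 and 131 CPM in Ing1-KO. It had 63.9, 48.7 and 55.3 CPM in those labelled Gadd45a-KO and 48.4, 35.3 and 47.9 CPM in WT. Here the difference was 2.30 ± 0.18 (SE, edgeR adjusted p = 0.000356). Acan and Eln, which encode aggrecan and elastin, were higher by 3.16 ± 0.61 (SE, edgeR adjusted p = 0.0133) and 2.25 ± 0.51 (SE, edgeR adjusted p = 0.024).

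In the lower direction, besides Ing1 itself, stood Cyp4b1, a cytochrome P450, at -1.67 ± 0.44 (SE, edgeR adjusted p = 0.0404), Slc6a17 at -1.33 ± 0.15 (SE, edgeR adjusted p = 0.00149), Prdm1, a transcriptional repressor, at -1.30 ± 0.19 (SE, edgeR adjusted p = 0.0034), Nt5e, which encodes CD73, at -1.26 ± 0.34 (SE, edgeR adjusted p = 0.0434), and Tmem267 at -1.25 ± 0.17 (SE, edgeR adjusted p = 0.00235). Of the 35 proliferation genes 21 were lower in Ing1-KO at equal score, against 5.7% of all genes, and 0 higher, with a median of -0.44. Without the score 6 were lower and 0 higher, with a median of -0.32. The difference at equal score contains the slope, which was negative in 34 of the 35. In the libraries labelled DKO against WT edgeR called 0 of them without the score (median 0.03) and 0 at equal score. Mki67, a marker of dividing cells, had 232, 237 and 277 CPM in the libraries labelled DKO and 152, 177 and 199 CPM in Ing1-KO. Its level was 191, 269.8 and 257 CPM in those labelled Gadd45a-KO and 223, 243 and 200.0 CPM in WT. At equal score its difference was -0.52 ± 0.15 (SE, edgeR adjusted p = 0.0586), short of the threshold. Of the genes that rose with the score 189 of 734 were higher at equal score (25.7%, against 5.96% of all genes) and 20 lower, and of those that fell 161 of 259 were lower (62.2%, against 5.7%) and 2 higher. This fit shares its slope with the choice of those genes, so the shares are no separate evidence. Among the lists, 7 of 18 complement and acute phase genes were higher and 2 lower, 4 of 12 brown and beige genes higher and 0 lower, and 4 of 21 genes of branched-chain amino acid breakdown higher and 1 lower. Cartilage and bone gave 4 higher and 0 lower of 15, and preadipocyte and anti-adipogenic genes 6 higher and 2 lower of 23. More genes were lower in cholesterol synthesis (0 higher and 6 lower of 24), the integrated stress and unfolded protein response (1 and 6 of 20) and collagen and matrix (3 and 6 of 33). The adipogenic transcription factors gave 2 higher and 2 lower of 20, triglyceride synthesis 1 higher and 0 lower of 15, fatty acid uptake 0 higher and 2 lower of 13, and lipolysis 0 of 11 in either direction by edgeR.

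The libraries labelled DKO could be compared with WT at equal score only by extrapolation, since their scores of 3.89 to 4.20 did not reach the 7.18 to 8.31 of WT. Under that fit 35 genes (0.268%) were called, 14 higher (0.107%) and 21 lower (0.161%), with counts between 2 and 988 when single libraries were left out. The share of higher genes among the calls was 40%, against 71.5% of the 988 without replicate 1 labelled Gadd45a-KO, 62.5% with the replicate numbers as a block and 57.4% with the leukocyte list as a term. None of the 734 genes was lower and 11 were higher, with the fitted slope subtracted. The 734 genes were chosen for a positive slope in the same libraries. Subtracting that slope moves their difference upward, so these counts are no separate evidence. The called genes with the largest differences were Comp at 2.84 ± 0.26 (SE, edgeR adjusted p = 0.00195), Gadd45a at 2.60 ± 0.084 (SE, edgeR adjusted p = 1.8e-07), Mme at 2.18 ± 0.27 (SE, edgeR adjusted p = 0.0196), the imprinted RNA H19 at 1.47 ± 0.2 (SE, edgeR adjusted p = 0.0304), Atf3, a stress factor, at 1.37 ± 0.21 (SE, edgeR adjusted p = 0.0369) and Islr at 1.36 ± 0.14 (SE, edgeR adjusted p = 0.0028). Lower were Ing1, Slc6a17 at -1.68 ± 0.24 (SE, edgeR adjusted p = 0.0369), Wnt4 at -1.64 ± 0.27 (SE, edgeR adjusted p = 0.0463), Ass1, which makes argininosuccinate, at -1.15 ± 0.18 (SE, edgeR adjusted p = 0.0369), Cth, of cysteine synthesis, at -1.09 ± 0.17 (SE, edgeR adjusted p = 0.0381) and Bpgm at -1.01 ± 0.092 (SE, edgeR adjusted p = 0.00195). In the libraries labelled Gadd45a-KO 1 gene was called at equal score by edgeR, again Gadd45a, with 672 at an unadjusted p under 0.05 (5.14%) and 8 calls by DESeq2.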

How the data were processed

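The deposited files hold raw read counts per gene for each of 12 libraries, not normalized by the authors. Per the submitters' processing notes, the tools were HTSeq 0.5.4, DESeq and FastQC besides the aligners Bowtie2 2.1.0 and TopHat2 2.0.9, with the mm9 (NCBIM37) build, and per the labels' protocols the libraries were unpaired reads from a TruSeq kit; the strand setting of the counting is not given in the sources used here, so overlapping and antisense genes cannot be told apart. The 5 lines that name no gene took 24.2% to 24.8% of a file and were left out.

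CPM was computed from total gene reads of 42891627 to 52860419 per library. Of 37991 gene IDs 32919 were given symbols from a GENCODE annotation. Genes with a mean of at least 1 CPM were fitted with edgeR 4.0.16 in R 4.3.3 (TMM factors of 0.990 to 1.01, robust quasi-likelihood fit, Benjamini-Hochberg adjustment over 13068 genes, calls at an adjusted p under 0.05). The slope model held 4 genotype means and the score, the test of differing slopes 3 further terms, and the genotype comparisons used means alone or means with the score. In counts simulated for the slope on the score with 13068 genes, 71.25%, 88.75% and 95% of slopes of 0.2, 0.4 and 0.8 were recovered, with 13 false calls. The simulated counts varied independently from gene to gene and held no variation shared by many genes. The 13 false calls therefore do not show the rate of false calls in the real libraries.

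The genes, lists and tests were chosen with earlier results of these data known. Besides the 5 score genes and 22 fixed genes, the text names the 12 steepest called genes in each direction (mean of at least 5 CPM, same sign in each genotype), up to 4 called members per list with the smallest adjusted p, the 6 called genes in each direction with the largest difference at equal score, and the 6 highest and 6 lowest correlations. Predicted genes, clones and pseudogenes were passed over, and a few genes that the rule names are not reported here. Of the symbols in 29 lists 8 were not matched. Some genes stand in more than 1 list, such as Aqp7 in triglyceride synthesis and lipolysis, so the lists are not separate evidence. Alternatives were RLE and upper-quartile factors, other filters, DESeq2 1.42.0, limma 3.58.1, a replicate block, the leukocyte list as covariate, scores of 4 genes, and fits without single libraries or without Ing1-KO.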

Additional observations from a re-analysis of the deposited data

How the results depend on the processing

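Of 116 named genes with a called slope, 116 kept their sign in all 12 fits that left out 1 library and 46 kept the call in all of them. DESeq2 kept 116, RLE factors 115 and limma-voom 115. Without the 3 Ing1-KO libraries 23 kept it, and 23 without the 2 libraries farthest in score. Leaving out those 2 leaves 1 Ing1-KO library, which its own mean absorbs, so for the slope both are the same fit. Of the 24 named differences at equal score, 14 lost the call without Ing1-KO replicate 1, 10 when its replicate 3 and 10 when replicate 2 of WT was left out, 9 with the replicate block and 17 without the 2 farthest libraries.

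The slope calls numbered 1246 higher and 657 lower with the leukocyte list as a covariate, 53 and 1 without the 3 Ing1-KO libraries, 53 and 1 without the 2 farthest libraries, and 394 lower with DESeq2. Leaving out 1 library gave 166 to 1172 higher and 4 to 541 lower. The count of genes with differing slopes was 1 with filterByExpr, 69 with DESeq2, 148 with the leukocyte list, 1 with a score without Fabp4, and 0 to 1451 with 1 library left out. The cause was not tested for these shifts.

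The replicate block gave 483 genes higher and 123 lower with the score, and 8 between DKO and WT at equal score. Replicate numbers only name the libraries: same-numbered libraries correlated at -0.365 to 0.437 in their deviations (18 pairs, 5 over 0.1), and 3 of 12 libraries were closest to their own number. With the block 95 of the 116 named slopes were called.

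Without the score, Ing1-KO against WT gave 1311 calls with DESeq2, 1183 with the leukocyte list, 362 without the 2 farthest libraries, where Ing1-KO is a single library assumed to vary like the other groups, and 77 to 1155 with 1 left out. Of the calls 58.75% were higher, against 68.74% with limma on log2(CPM + 1). At equal score the counts were 2514 with the leukocyte list and 40 without the 2 farthest libraries (again 1 Ing1-KO library, 75% of calls higher), and 224 to 2447 with 1 left out. DKO against WT without the score gave 265 calls with the leukocyte list and 325 to 2673 with 1 left out, and of the 734 genes 4, and 38 to 471, were lower.

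DKO against WT at equal score gave 53 calls with upper-quartile factors, 88 with filterByExpr, 73 at a mean of 5 CPM, 461 with DESeq2, 97 with limma-voom, 76 with limma on log2(CPM + 1) and 279 with the leukocyte list. It gave 84, 77 and 62 with scores without Plin1, Cidec and Cd36, 2 without Ing1-KO, 2 without the 2 farthest libraries, and 2 to 988 with 1 left out. The label Gadd45a-KO against WT gave 2 with filterByExpr, 7 with DESeq2 and 1 to 26 with 1 left out, and at equal score 3, 8, 4 with the leukocyte list, and 1 to 155.

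Among slopes that were not called, Cebpb ranged from -0.0053 (without Ing1-KO replicate 1) to 0.055 with 1 library left out. Col1a1 had 0.115 without Ing1-KO, 0.115 without the 2 farthest libraries and -0.046 to 0.020 with 1 left out, the highest without Ing1-KO replicate 3. Ptprc had 0.014 with the replicate block. Adgre1 had -0.099 without Ing1-KO, -0.099 without the 2 farthest libraries and -0.044 (without Ing1-KO replicate 1) to 0.086 with 1 left out. With 7 residual degrees of freedom and 86.8% of the spread in 3 libraries, a slope that misses the threshold is not shown to be 0.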
